A study of Mus musculus with 7 samples.

Results

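The genes described here are 34 genes of mitochondrial fatty acid oxidation and ketone body metabolism, taken by symbol from the 54532 genes of a liver transcriptome. The list covers the nuclear receptor PPARa and its partner, fatty acid uptake and binding, acyl-CoA synthetases, the carnitine shuttle, acyl-CoA dehydrogenases, the later steps of beta-oxidation, the electron transfer flavoprotein system and ketone body enzymes. All 34 genes were found, and all 34 passed the filter on low values. The 7 male C57BL/6 mice were 30 weeks old when the liver was taken. Of these, 3 had free access to food (ad libitum, AL) and 4 were kept on caloric restriction (CR). The diets began at 12 weeks of age and lasted 18 weeks, with CR mice at 30% restriction. CR mice were caged singly and given 1 meal a day soon after lights off, AL mice were kept in groups with food in the hopper, and all mice were killed in the afternoon. Housing and hours since the last meal therefore cannot be told apart from the diet. Each mouse gave 1 poly(A) RNA library, so replicates are different mice.

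Fatty acids that enter a hepatocyte are carried by binding proteins, joined to coenzyme A by synthetases and, if long, passed into the mitochondrion on carnitine. Inside, the chain is shortened by repeated rounds of dehydrogenation, hydration, a further dehydrogenation and thiolysis, and the electrons of the opening dehydrogenation leave through the electron transfer flavoprotein. Liver turns much of the resulting acetyl-CoA into ketone bodies in fasting and exports them. Many of these genes are known targets of PPARa, a fatty acid sensing nuclear receptor that binds DNA with RXR.

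Levels are given as deposited, in FPKM (fragments per kilobase, corrected for the depth of each library). Libraries held 15641740 to 19900806 reads in genes, and a single read in a 2 kb gene was worth 0.025 to 0.032 FPKM. Differences were tested with limma on log2(FPKM + 0.1), a scale that understates the change of low genes, over the 12699 genes that reached 0.5 FPKM in 3 or more libraries. A gene was said to rise or fall in CR at a Benjamini-Hochberg adjusted p under 0.05 over all genes tested. Mitochondrially encoded genes held 3.92% to 4.85% of AL reads and 5.62% to 8.09% of CR reads, and they were highest in CR replicates 1 and 2. Of 8 hepatocyte markers 2 rose, 0 fell and 6 were not called, and their summed level was 27079 to 43821 FPKM in AL and 56233 to 60397 FPKM in CR livers. Most of this sum was Alb, with means of 20408 FPKM in AL and 39211 FPKM in CR livers. The log2 fold change was positive for 7 of the 8 and negative for Apoa1 (means 4766 and 2889 FPKM, not called). Among markers of other cells, 1 of 10 Kupffer cell genes rose and 1 fell, 0 of 9 endothelial genes were called (2 of 9 at an unadjusted p under 0.05), 0 of 8 stellate cell genes rose and 2 fell, and 4 of 5 red blood cell genes rose and 1 fell. None of 4 tested bile duct genes and not the 1 tested lymphocyte gene was called by limma, with 1 and 0 at an unadjusted p under 0.05. Called or not, 8 of 10 Kupffer cell, 8 of 9 endothelial, 7 of 8 stellate cell and 3 of 4 bile duct genes had a negative log2 fold change. In such bulk samples fewer cells of a type and less RNA per cell cannot be told apart.

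Of the 34 genes 8 rose and 4 fell in CR livers. Cd36, Acad10, Echs1, Hadh, Acadl, Acsm5, Etfa and Acadm rose, and Fabp1, Acsl1, Cpt2 and Rxra fell. Among all genes tested 11.3% rose and 10.2% fell, so that the share that rose (23.5%) lay above the background and the share that fell (11.8%) near it. Every CR liver lay above every AL liver for 9 of the 34 genes, against 17.6% of all genes, and below for 4, against 16.8%. The median log2 fold change was 0.14 over the 34 genes and -0.002 over all genes tested. Changes were modest for most genes, with 2 beyond 1 on the log2 scale, Cd36 upward and Fabp1 downward. Of the 8 genes that rose, 6 belonged to the dehydrogenases, the later steps and the flavoprotein system, which hold 17 of the 34 genes. All 4 that fell belonged to the receptor, binding, activation and carnitine steps, which hold 14. This split by role was read from the values and was not tested. The counts by role given below rest on few genes and are to be read beside the 11.3% and 10.2% of all genes. Cd36, Acad10, Echs1 and Fabp1 passed in all 19 alternative settings. With no filter on low values Rxra, Acsl1, Acsm5, Cpt2 and Etfa did not pass (limma adjusted p 0.0581 to 0.0817). Without AL replicate 2 only 4 genes rose and 1 fell. Over all genes 699 rose and 629 fell in that fit, against 1433 and 1291 in the main fit.

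**Figure D1:**
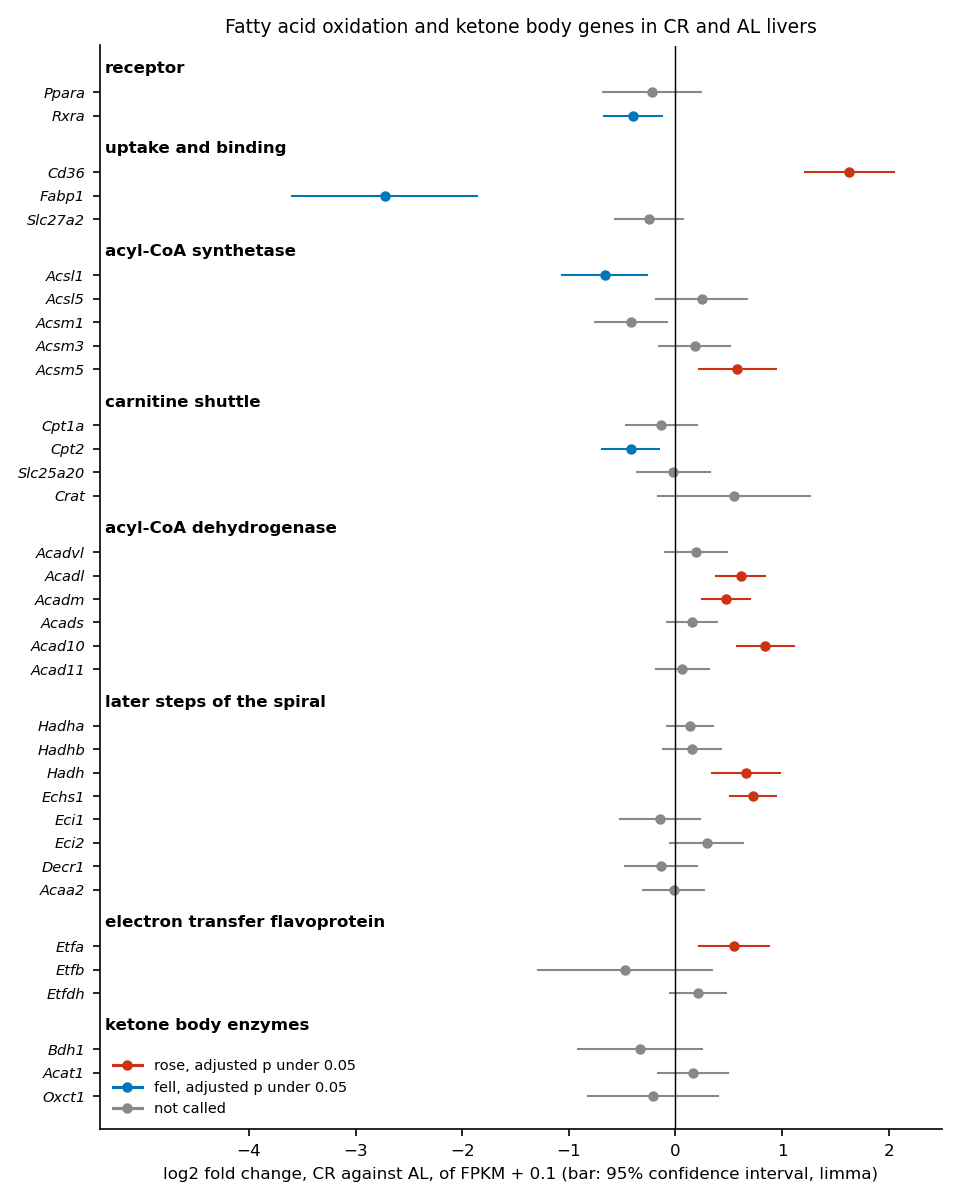
Log2 fold change of FPKM + 0.1 in CR (n = 4) against AL (n = 3) livers for the 34 genes, grouped by role, with 95% confidence intervals from limma. Red marks genes that rose, blue genes that fell and grey genes not called. Cd36 at 1.63 and Fabp1 at -2.73 stand outside the range of the other genes, and all 6 acyl-CoA dehydrogenases lie to the right of 0.

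Fabp1 and Cd36 handle fatty acids before activation, and they carried the largest changes of the list in opposite directions. Fabp1, the abundant cytosolic fatty acid binding protein of hepatocytes (chromosome 6, 71199827 to 71205023, plus strand, GRCm38), stood at 3547, 3376 and 2244 FPKM in AL replicates 1 to 3. In CR replicates 1 to 4 it stood at 562, 296, 308 and 815 FPKM. The highest CR liver lay far below the lowest AL liver. The group means were 3056 ± 708 FPKM (SD, n = 3) and 495 ± 246 FPKM (SD, n = 4), a ratio of 0.162, and the log2 fold change was -2.73 (SE 0.37, limma adjusted p = 0.0030). Ranked by mean FPKM over all genes, Fabp1 went from place 18 in AL to place 94 in CR livers. Its fall dominated the pool of these transcripts. The summed level of the 34 genes was 5587 ± 753 FPKM in AL and 3109 ± 444 FPKM in CR livers, whereas without Fabp1 it was 2532 ± 68.6 and 2614 ± 206 FPKM.

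Cd36, a membrane protein that takes up long-chain fatty acids (chromosome 5, 17781690 to 17888801, minus strand), stood at 14.4, 15.0 and 16.7 FPKM in AL replicates 1 to 3. It stood at 62.0, 49.5, 35.3 and 47.6 FPKM in CR replicates 1 to 4. All CR livers were at least at 35.3 FPKM, and CR replicate 1 was the highest. The mean rose from 15.3 ± 1.19 to 48.6 ± 10.9 FPKM, a ratio of 3.17 (log2 fold change 1.63, SE 0.18, limma adjusted p = 0.0012). Cd36 is also made by endothelial cells, macrophages and adipocytes. The summed level of 9 endothelial markers was 75.9 to 79.1 FPKM in AL and 32.9 to 73.1 FPKM in CR livers, and that of 10 Kupffer cell markers was 207 to 317 and 117 to 315 FPKM. The 6 adipocyte markers summed to 7.81 to 20.5 FPKM in AL and 2.76 to 5.54 FPKM in CR livers, 1 of the 3 tested fell, and Lep was at 0 in all 7 livers. No CR liver exceeded the highest AL liver in these 3 sums, but single genes did. The Kupffer cell marker Marco, a scavenger receptor of macrophages, rose from 3.54, 7.77 and 6.90 FPKM in AL to 21.1, 34.7, 13.4 and 20.8 FPKM in CR (log2 fold change 1.87, limma adjusted p = 0.011), and is named after its values were seen. The part of other cells in the level of Cd36 was not tested. Slc27a2, the very long-chain fatty acid transporter and synthetase of liver, stood at 282 ± 23.1 FPKM in AL and 238 ± 30.5 FPKM in CR livers and was not called (log2 fold change -0.25, limma adjusted p = 0.235).

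**Figure D2:**
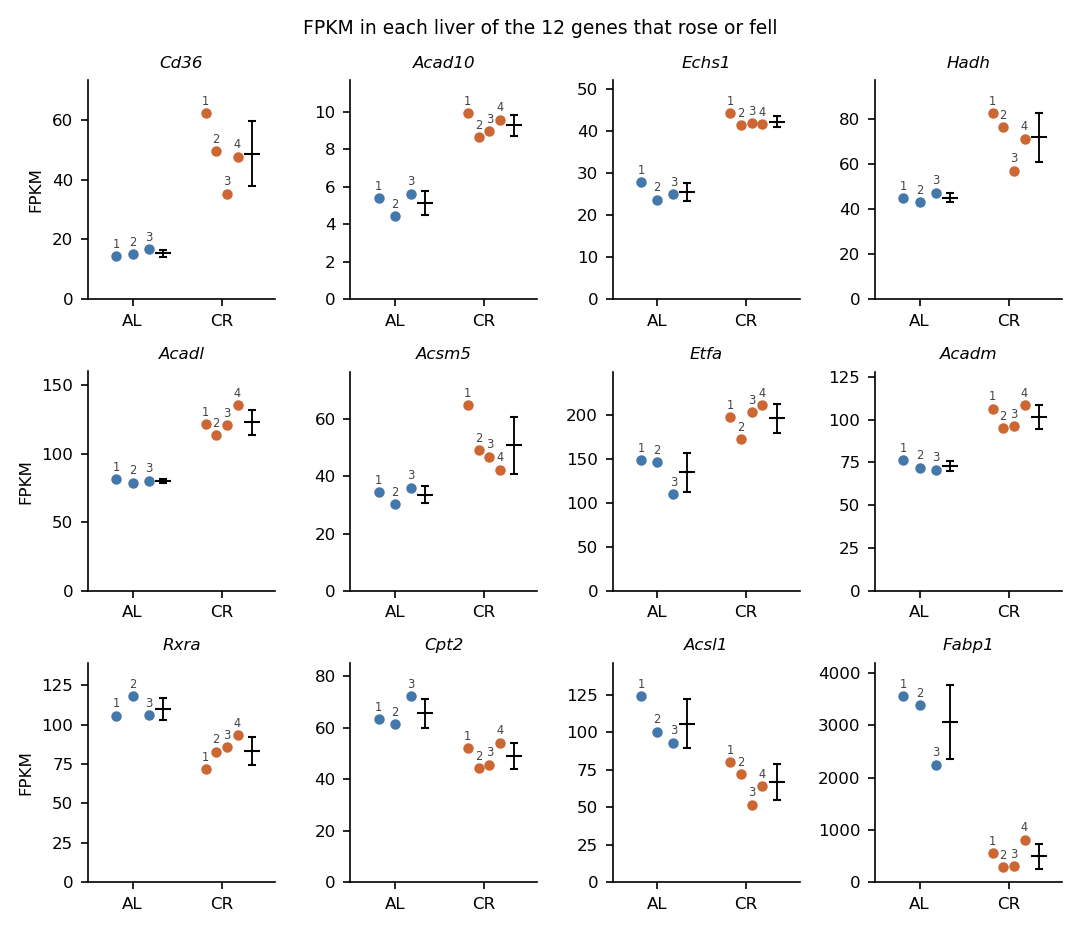
FPKM in each liver for the 12 genes that rose or fell, with AL replicates 1 to 3 in blue, CR replicates 1 to 4 in orange and the group mean with its SD in black. Groups do not overlap in any panel. Echs1 is tight within CR livers, from 41.4 to 44.2 FPKM, whereas Fabp1 ranges from 296 to 815 FPKM.

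Promoter windows are shown for the 5 genes that rose or fell and whose window holds the half-site to which receptors such as PPARa and RXR bind. Each window was read from RefSeq on GRCm38.p6, on the strand of the gene, over the 250 bases before the RefSeq start. Bases inside GENCODE M21 exons were left out. Capitals mark letters found by a search of both strands, the half-site AGGTCA or its reverse complement and, in Fabp1, a direct repeat, which is AGGNCA written 2 times with 1 free base between and here contains a half-site.
Fabp1: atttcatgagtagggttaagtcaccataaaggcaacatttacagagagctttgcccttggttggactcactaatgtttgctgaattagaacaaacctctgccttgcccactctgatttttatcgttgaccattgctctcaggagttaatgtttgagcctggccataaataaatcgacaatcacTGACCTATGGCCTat
Cd36: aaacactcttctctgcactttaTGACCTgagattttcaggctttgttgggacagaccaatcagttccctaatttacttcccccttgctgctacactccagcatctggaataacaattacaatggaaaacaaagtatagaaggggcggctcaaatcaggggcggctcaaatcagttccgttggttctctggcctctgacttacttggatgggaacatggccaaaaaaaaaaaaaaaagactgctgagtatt
Echs1: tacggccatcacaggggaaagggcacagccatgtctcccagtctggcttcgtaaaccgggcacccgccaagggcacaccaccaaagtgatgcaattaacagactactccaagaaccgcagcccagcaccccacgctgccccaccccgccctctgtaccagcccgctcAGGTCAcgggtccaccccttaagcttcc
Acadm: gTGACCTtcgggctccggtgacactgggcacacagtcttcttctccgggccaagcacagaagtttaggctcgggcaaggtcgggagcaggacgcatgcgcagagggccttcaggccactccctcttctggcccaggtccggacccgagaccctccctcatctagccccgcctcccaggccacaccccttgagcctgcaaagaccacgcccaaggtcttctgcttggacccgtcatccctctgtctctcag
Rxra: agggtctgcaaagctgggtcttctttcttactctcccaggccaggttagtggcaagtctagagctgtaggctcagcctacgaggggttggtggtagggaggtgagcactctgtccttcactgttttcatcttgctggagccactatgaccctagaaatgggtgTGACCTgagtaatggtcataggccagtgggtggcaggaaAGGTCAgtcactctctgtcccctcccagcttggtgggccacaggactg
The Fabp1 window lies at chr6:71199629-71199826 on the plus strand, and the repeat reads on the minus strand from 67 to 55 bases before the start. A further half-site of Fabp1, on the minus strand from 9 to 4 bases before the start, lies in the exon bases left out. The Cd36 window lies at chr5:17835897-17836146 on the minus strand, before a start inside the deposited gene. The Echs1 window lies at chr7:140116477-140116671 and the Acadm window at chr3:153944644-153944893, both on the minus strand. The Rxra window lies at chr2:27709042-27709291 on the plus strand, also before a start inside the deposited gene, and holds 2 half-sites. The other Rxra window, at chr2:27676951-27677200, held no half-site and is not shown. The repeat was found in 0.338% of 32851 RefSeq windows of this length, and Fabp1 was the single match among the 30 genes of the list with a window. The half-site was found in 14.0% of all windows. By gene, counted if any window of the gene held it, it was in 9 of the 30, which have 33 windows. The share by window and the count by gene are thus not the same measure. The 9 were Rxra, Cd36, Fabp1, Slc27a2, Acsm1, Cpt1a, Acadvl, Acadm and Echs1. Of these 9 genes 3 rose, 2 fell and 4 were not called. The stricter repeat of AGGTCA with 1 free base between (0.0335% of all windows) and the extended half-site TCAAGGTCA (0.387%) were in 0 of the 30, and the E-box CACGTG (6.02%) was in Acsm5. These matches describe letters, and binding was not measured.

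Of the 2 receptor genes 0 rose and 1 fell. Rxra, the partner with which PPARa binds DNA, stood at 106, 118 and 106 FPKM in AL and 71.9, 82.8, 85.9 and 93.3 FPKM in CR livers. All CR livers lay below all AL livers, and the log2 fold change was -0.40 (SE 0.12, limma adjusted p = 0.0458). This call was just inside the threshold, and its adjusted p was 0.0635 to 0.159 when any of AL replicates 1, 2 and 3 or CR replicates 1, 2 and 3 was left out. Ppara stood at 36.0, 41.4 and 46.5 FPKM in AL and 42.3, 25.9, 32.1 and 43.7 FPKM in CR livers, where the groups overlapped (log2 fold change -0.22, 95% confidence interval -0.68 to 0.24, limma adjusted p = 0.464).

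Among the synthetases, which join fatty acids to coenzyme A, 1 rose, 1 fell and 3 were not called. Acsl1, the main long-chain synthetase of liver, stood at 124, 100.5 and 93.2 FPKM in AL and 80.0, 72.2, 51.8 and 64.3 FPKM in CR livers. The mean fell from 106 ± 16.1 to 67.1 ± 12.0 FPKM (log2 fold change -0.66, SE 0.17, limma adjusted p = 0.0320). Its adjusted p was 0.0510 to 0.110 without AL replicate 1 or 2 or without CR replicate 2, 3 or 4. Acsm5, a medium-chain synthetase of the mitochondrial matrix, stood at 34.5, 30.2 and 36.0 FPKM in AL and 64.9, 49.2, 46.8 and 42.3 FPKM in CR livers, with CR replicate 1 highest. It rose by 0.58 on the log2 scale (SE 0.16, limma adjusted p = 0.0358), and its adjusted p was 0.0577 to 0.128 without AL replicate 1 or 2 or CR replicate 2 or 3. Acsm1, the most abundant of the 5, belongs to the same family and stood at 162, 136 and 186 FPKM in AL and 122, 140, 115 and 106 FPKM in CR livers. CR replicate 2 reached into the AL range, and Acsm1 was not called (log2 fold change -0.41, SE 0.15, limma adjusted p = 0.0821). The long-chain synthetase Acsl5 (54.1 ± 8.20 and 64.6 ± 12.8 FPKM in AL and CR, log2 fold change 0.25) and the medium-chain synthetase Acsm3 (12.6 ± 1.21 and 14.4 ± 2.10 FPKM, 0.18) were not called, with adjusted p of 0.377 and 0.407 by limma.

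The carnitine shuttle, which moves long-chain acyl groups across the inner mitochondrial membrane, held 1 gene that fell and 0 that rose. Cpt1a, the outer membrane transferase that malonyl-CoA inhibits, was the most abundant and stood at 109.8, 123 and 121 FPKM in AL and 99.8, 93.3, 105 and 136 FPKM in CR livers. CR replicate 4 was the highest of all 7 livers and the other CR livers lay below the AL range (log2 fold change -0.13, SE 0.14, 95% confidence interval -0.47 to 0.20, limma adjusted p = 0.552). Cpt2, the inner membrane transferase that hands the chain back to coenzyme A, stood at 63.3, 61.5 and 72.2 FPKM in AL and 52.1, 44.3, 45.7 and 54.3 FPKM in CR livers. The groups did not overlap, and Cpt2 fell by 0.42 on the log2 scale (SE 0.12, limma adjusted p = 0.0382). Its adjusted p was 0.0597 to 0.0934 when any library other than CR replicate 4 was left out. Slc25a20, the carnitine-acylcarnitine carrier, had close means of 22.9 ± 1.86 and 22.8 ± 4.16 FPKM (log2 fold change -0.02, 95% confidence interval -0.36 to 0.33). Crat, the carnitine acetyltransferase, varied from 4.50 to 12.0 FPKM among AL livers and from 9.29 to 13.8 FPKM among CR livers (log2 fold change 0.55, limma adjusted p = 0.243). Without AL replicate 3, the highest AL liver, Crat was called (log2 fold change 0.91, limma adjusted p = 0.0353). Crat overlaps Dolpp1 on the opposite strand, which stood at 52.8% of its FPKM, and since the sources used here do not give the strand of the reads, those of the overlap cannot be told apart.

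Acyl-CoA dehydrogenases take the opening step of each round, and they differ by the chain length they prefer. All 6 had a positive log2 fold change and 3 rose. Acadl, the long-chain enzyme, stood at 81.4, 78.8 and 80.4 FPKM in AL and 122, 113, 121 and 135 FPKM in CR livers. The AL livers lay close together and every CR liver was well above them (log2 fold change 0.61, SE 0.10, limma adjusted p = 0.0055). Acadm, the medium-chain enzyme, stood at 76.2, 71.9 and 70.8 FPKM in AL and 106, 94.8, 96.2 and 109 FPKM in CR (log2 fold change 0.47, SE 0.10, limma adjusted p = 0.0142). Its groups did not overlap, and its adjusted p was 0.0627 without AL replicate 2. Acad10, which carries a kinase-like domain joined to its dehydrogenase, had the lowest level and the highest fold change of the family. It stood at 5.40, 4.42 and 5.64 FPKM in AL and 9.91, 8.66, 8.96 and 9.58 FPKM in CR (log2 fold change 0.84, SE 0.12, limma adjusted p = 0.0030). The lowest CR liver was well above the highest AL liver.

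The other 3 dehydrogenases were not called. Acadvl, the very long-chain enzyme of the inner membrane, stood at 74.9, 78.3 and 80.0 FPKM in AL and 79.2, 79.3, 94.1 and 104 FPKM in CR livers, with a log2 fold change of 0.19 (limma adjusted p = 0.319). CR replicates 1 and 2 lay within the AL range and CR replicates 3 and 4 above it. Acads, the short-chain enzyme, had means of 66.2 ± 0.959 and 73.7 ± 6.16 FPKM (log2 fold change 0.15, limma adjusted p = 0.326). Acad11, a relative of Acad10, had means of 29.9 ± 1.79 and 31.4 ± 3.04 FPKM (log2 fold change 0.06, limma adjusted p = 0.706). The 6 genes summed to 328 to 334 FPKM in AL and 399 to 472 FPKM in CR livers, a ratio of means of 1.29.

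Electrons from these enzymes pass to the electron transfer flavoprotein, a dimer of the Etfa and Etfb products, and on to the ubiquinone oxidoreductase Etfdh. Etfa stood at 148, 146 and 109 FPKM in AL and 197, 172, 203 and 211 FPKM in CR livers. AL replicate 3 was lowest and every CR liver lay above every AL liver (log2 fold change 0.55, SE 0.14, limma adjusted p = 0.0318). Without any of AL replicates 1, 2 and 3 or CR replicates 1, 3 and 4 its adjusted p was 0.0509 to 0.0700. Etfb, the partner subunit, stood at 24.8, 28.8 and 29.2 FPKM in AL and 14.0, 11.9, 28.5 and 32.2 FPKM in CR livers. CR replicates 1 and 2 were below the AL range, whereas CR replicates 3 and 4 were at its level, and Etfb was not called (log2 fold change -0.48, SE 0.35, limma adjusted p = 0.372). In a fit without CR replicates 1 and 2, chosen after seeing the data, its log2 fold change was 0.14, and without CR replicates 3 and 4 it was -1.09. Both fits follow the split seen in these same values, so their p-values cannot test it and are not given. Mitochondrially encoded genes held 7.86% and 8.09% of reads in CR replicates 1 and 2 and 5.62% and 6.19% in CR replicates 3 and 4, and their part in this split was not tested. Of the 100-base words of Etfb transcripts 35.8% also occur in the overlapping gene Gm45233, which stood at 0.0706% of the FPKM of Etfb. That low value does not show how many shared reads were left out of the count of Etfb, so the level of Etfb may be too low. Etfdh had means of 29.2 ± 1.96 and 33.9 ± 3.69 FPKM (log2 fold change 0.21, limma adjusted p = 0.223).

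**Figure D3:**
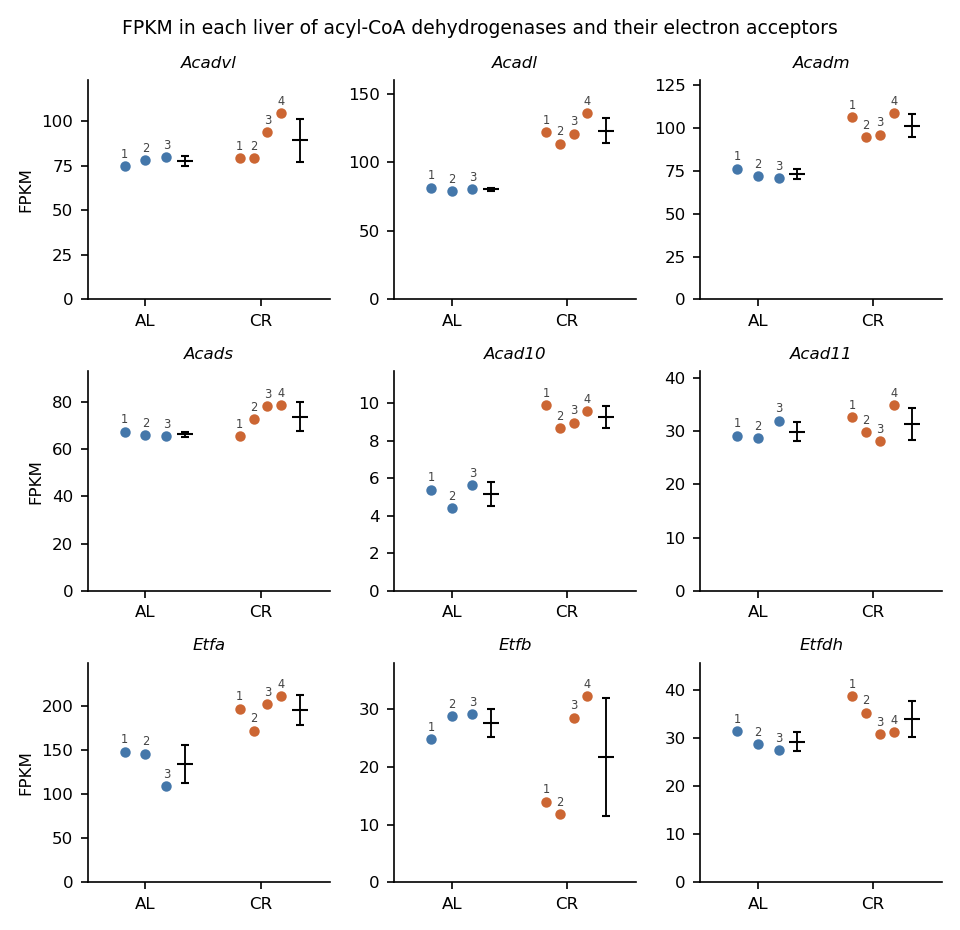
FPKM in each liver for the 6 acyl-CoA dehydrogenases and the 3 genes that accept their electrons, with AL replicates 1 to 3 in blue, CR replicates 1 to 4 in orange and the mean with its SD in black. Acadl, Acadm, Acad10 and Etfa lie apart between groups, and Etfb splits the CR livers into 14.0 and 11.9 FPKM against 28.5 and 32.2 FPKM.

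Of the 8 genes of the later steps 2 rose and 0 fell. Echs1, the short-chain enoyl-CoA hydratase, which also serves valine breakdown, stood at 27.8, 23.7 and 25.1 FPKM in AL and 44.2, 41.4, 41.8 and 41.6 FPKM in CR livers. The CR livers were tight and all lay above the AL livers (log2 fold change 0.73, SE 0.09, limma adjusted p = 0.0024). Its opposite-strand neighbour Paox overlaps it, stood at 23.1% of its FPKM and was not called (log2 fold change 0.10, limma adjusted p = 0.606). Hadh, the 3-hydroxyacyl-CoA dehydrogenase of shorter chains, stood at 44.9, 43.3 and 47.3 FPKM in AL and 82.6, 76.6, 57.2 and 71.5 FPKM in CR livers. CR replicate 3 was lowest of its group and still above every AL liver (log2 fold change 0.66, SE 0.14, limma adjusted p = 0.0145). Without AL replicate 1 or 2 the adjusted p of Hadh was 0.0526 and 0.0623.

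The trifunctional protein carries out the later steps for long chains, and neither of its genes was called. Its subunit genes Hadha (39.2 ± 1.81 FPKM in AL and 43.2 ± 2.26 in CR) and Hadhb (22.2 ± 1.14 and 24.9 ± 3.12 FPKM) had log2 fold changes of 0.14 and 0.16, with limma adjusted p of 0.326 and 0.384. The upper bounds of their 95% confidence intervals, 0.35 and 0.43, lay below the lower bound for Echs1 but above that for Hadh. The intervals of Hadha and Hadhb thus overlapped that of Hadh and not that of Echs1. The differences between these genes were not tested. Hadha and Hadhb stand head to head on chromosome 5, with 85 bases between the end of Hadha at 30155162 and the start of Hadhb at 30155248.

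Acaa2, the thiolase that releases acetyl-CoA, was the most abundant gene of these steps and the most abundant of all 34 in CR livers. It stood at 595, 572 and 509.9 FPKM in AL and 586, 505, 505 and 617 FPKM in CR livers, where the groups overlapped throughout (log2 fold change -0.02, 95% confidence interval -0.30 to 0.27, limma adjusted p = 0.937). The accessory enzymes of unsaturated chains are the isomerases Eci1 and Eci2 and the dienoyl-CoA reductase Decr1. Eci2 stood at 28.1, 33.9 and 31.5 FPKM in AL and 35.5, 34.6, 35.2 and 48.8 FPKM in CR livers, apart between groups but not called (log2 fold change 0.29, limma adjusted p = 0.194). Eci1 (88.8 ± 14.0 and 80.1 ± 12.5 FPKM) and Decr1 (38.1 ± 3.39 and 35.0 ± 5.46 FPKM) had log2 fold changes of -0.15 and -0.13, with limma adjusted p of 0.552 and 0.555. The 8 genes summed to 849 ± 51.5 FPKM in AL and 889 ± 87.5 FPKM in CR livers.

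Ketone body enzymes of the list were not called. Acat1, the mitochondrial acetoacetyl-CoA thiolase, stood at 95.4, 78.8 and 70.2 FPKM in AL and 100.1, 90.5, 77.2 and 96.2 FPKM in CR livers. The groups overlapped (log2 fold change 0.16, SE 0.14, limma adjusted p = 0.450). Bdh1, which reduces acetoacetate to 3-hydroxybutyrate, stood at 46.3 ± 5.51 FPKM in AL and 38.1 ± 11.9 FPKM in CR livers, with CR replicate 3 at 23.9 FPKM (log2 fold change -0.33, limma adjusted p = 0.383). Oxct1, the transferase that lets other tissues burn ketone bodies and that hepatocytes largely lack, was the lowest gene of the list at 1.36 ± 0.358 and 1.16 ± 0.335 FPKM (log2 fold change -0.21, limma adjusted p = 0.606). The 3 genes summed to 129 ± 8.15 FPKM in AL and 130 ± 21.7 FPKM in CR livers.

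The 22 genes that were not called had log2 fold changes from -0.48 to 0.55. For 20 of them the 95% confidence interval lay within 1 on the log2 scale in either direction, and for 14 it excluded a fold of 1.5. The interval therefore left room for larger changes in 8 genes, Etfb and Crat among them. Liver by liver, the median of the 34 genes on log2(FPKM + 0.1), relative to each gene's AL mean, was 0.02, -0.03 and 0.05 in AL replicates 1 to 3. It was 0.11, 0.12, -0.08 and 0.22 in CR replicates 1 to 4, so that CR replicate 3 lay below the AL livers.

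Related genes were also compared as ratios within a liver, which do not depend on the scaling between libraries. For 8 pairs an exact two-sided permutation test of the mean log2 ratio ran over the 35 splits of 7 livers, whose smallest possible p is 0.0286. The long-chain to very long-chain dehydrogenase ratio, Acadl over Acadvl, was 1.09, 1.01 and 1.01 in AL and 1.54, 1.43, 1.28 and 1.30 in CR livers (exact p = 0.0286, adjusted over the 8 pairs 0.0762). Acsm5 over Acsm1 was 0.210 ± 0.0148 in AL and 0.423 ± 0.0773 in CR livers, and Acsl5 over Acsl1 was 0.512 ± 0.0573 and 0.962 ± 0.0406, both with the same p. Every CR liver lay above every AL liver for these 3 ratios. Each holds a gene already called in the same livers (Acadl, Acsm5 and Acsl1), so the ratios are not separate support for those calls. The pairs below with Acadm, Etfa, Cpt2 or Rxra also hold a called gene, and the same applies to them. Acadm over Acads was 1.10 ± 0.0273 and 1.39 ± 0.171 (exact p = 0.0571, adjusted 0.114). Etfa over Etfb was 5.97, 5.08 and 3.76 in AL and 14.1, 14.5, 7.11 and 6.56 in CR livers (exact p = 0.0857, adjusted 0.114), apart between groups but with CR replicates 1 and 2 far above the other CR livers. Cpt1a over Cpt2 was 1.80 ± 0.176 and 2.21 ± 0.254 (exact p = 0.0857, adjusted 0.114). Hadha over Hadhb, 1.77 ± 0.0173 and 1.75 ± 0.194, and Ppara over Rxra, 0.377 ± 0.0532 and 0.436 ± 0.120, overlapped between groups (exact p = 1 and 0.543). No ratio passed 0.05 after adjustment, and in this design none could with 8 pairs unless most reached the smallest p.

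**Figure D4:**
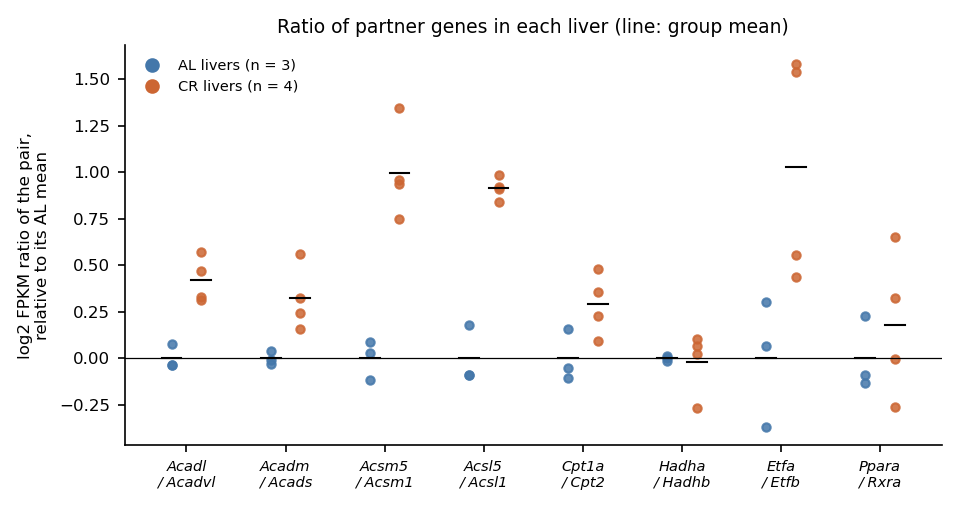
Log2 ratio of FPKM of 8 gene pairs in each liver, relative to the mean of the AL livers, with AL livers (n = 3) in blue, CR livers (n = 4) in orange and group means as black lines. Acsl5 over Acsl1 is tight among CR livers, with ratios of 0.912 to 1.01, and Etfa over Etfb splits the CR livers.

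Levels of different genes depend on the length by which reads are divided. The deposited lengths were 0.96 to 5.32 times those of the GENCODE M21 principal transcript (median 1.27). Echs1 was the extreme, with 8286 against 1557 bases, and per length of its principal transcript its mean in CR livers would be 225 in place of 42.3 FPKM, which moves it from place 21 to place 5 among the 34 genes. Hadhb (3.22 times), Eci2 (3.17), Etfdh (3.16), Acad11 (2.84), Hadh (2.78), Slc25a20 (2.72), Acsl1 (2.69) and Hadha (2.17) also stood higher on that scale. Acaa2, Fabp1, Slc27a2 and Etfa were the 4 most abundant in CR livers on either scale. Length cancels in the comparison of diets. Transcripts of 9 of the genes shared over 5% of their 100-base words with other genes, led after Etfb by Acsm3 (27.8%, with Eri2), Acadvl (14.9%, with Dvl2) and Hadhb (14.8%, with processed pseudogenes), so that their counts may be less certain.

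Other genes of the same pathways are given for comparison, from lists written from general knowledge. Among all genes tested 11.3% rose and 10.2% fell. Of 23 other mitochondrial fatty acid oxidation genes tested 3 rose and 6 fell (13.0% and 26.1%). The acyl-CoA thioesterases Acot13 (31.0 ± 5.67 to 85.5 ± 10.2 FPKM, log2 fold change 1.47) and Acot2 (1.15 ± 0.341 to 4.34 ± 1.72 FPKM, 1.79) rose, and 2 further fatty acid binding proteins, Fabp2 (38.3 ± 1.24 to 16.4 ± 2.30 FPKM, -1.23) and Fabp5 (17.0 ± 3.48 to 4.76 ± 0.501 FPKM, -1.80), fell with Fabp1. The binding protein Fabp4 of this list was not called (1.67 ± 0.368 and 1.61 ± 0.175 FPKM, log2 fold change -0.04, limma adjusted p = 0.890). Of 6 other ketone body genes 0 rose and 1 fell, Slc16a6, a carrier that exports ketone bodies in zebrafish liver (2.33 ± 0.683 to 0.664 ± 0.0943 FPKM, log2 fold change -1.64).

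Of 24 other partners and targets of PPARa 7 rose and 3 fell (29.2% and 12.5%). The omega-hydroxylases Cyp4a14 (8.55 ± 1.61 to 955 ± 227 FPKM, log2 fold change 6.77) and Cyp4a10 (40.5 ± 5.38 to 610.4 ± 206 FPKM, 3.85) rose, with log2 fold changes above that of any of the 34 genes. The coactivator Ppargc1a (0.920 ± 0.152 to 5.33 ± 1.10 FPKM, 2.40) and the peroxisomal bifunctional enzyme Ehhadh (76.2 ± 25.5 to 308 ± 54.6 FPKM, 2.06) rose as well. The 3 that fell, named here after their values were seen, were the pantetheinase Vnn1 (19.3 ± 1.90 to 3.84 ± 1.85 FPKM, -2.43), the lipid droplet protein Plin2 (169 ± 57.6 to 54.4 ± 20.7 FPKM, -1.64) and the transcription factor Creb3l3 (114 ± 16.4 to 61.1 ± 17.0 FPKM, -0.92), with limma adjusted p of 0.0040, 0.0135 and 0.0193. Of 16 peroxisomal genes 3 rose and 1 fell (18.8% and 6.25%). Abcd2, an importer of very long-chain acyl-CoA, went from 0.466 ± 0.0632 to 14.0 ± 6.26 FPKM (4.54) and the thioesterase Acot4 from 5.05 ± 3.41 to 24.4 ± 6.24 FPKM (2.40), whereas Scp2, a sterol carrier and thiolase, went from 1158 ± 164 to 483 ± 19.7 FPKM (-1.25). Over the union of these lists 12 rose and 11 fell of 65 tested (18.5% and 16.9%), with a median log2 fold change of -0.04. For every other called gene named from these lists the limma adjusted p was at most 0.0065.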

How the data were processed

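The members and gene lists were chosen with earlier results of these data known, so no choice was made blind to the values. Per the labels, the submitters used CASAVA 2.19, HISAT2 2.0.5 and featureCounts 1.5.0-p3 on GRCm38. The authors deposited FPKM per gene, scaled by median-of-ratios size factors. FPKM times gene length gave whole reads in every library (100% of values within 0.01). No libraries were duplicates. FPKM were tested with limma 3.58.1 (statmod 1.5.0, R 4.3.3, trend and robust variance, two-sided) on log2(FPKM + 0.1), CR against AL without covariates, and adjusted over all 12699 genes tested. The test was also run on simulated data, whose outcome is not given here. Ratios were compared by exact permutation. Alternatives covered pseudocount, filter, scaling, variance model, a replicate block, limma-voom applied to the recovered reads, each library left out and, chosen after seeing the data, 2 CR libraries left out together. Values in every liver are given for called genes and the most abundant gene of each role. Outside the 34 genes, the 4 called with the smallest adjusted p in each list could be named, and the exceptions were chosen after their values were seen. Promoters came from RefSeq (GRCm38.p6), exons from GENCODE M21 and overlaps from deposited coordinates. Figures were drawn with matplotlib 3.10.9. Some measured genes are counted but not named.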

Additional observations from a re-analysis of the deposited data

Results flagged for a closer look

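In CR livers 2 of the 34 genes had 1 liver far from the other 3 by Dixon's criterion, past its 95% critical value for 4 livers. For Echs1 the gap of CR replicate 1 (44.2 FPKM) to the next liver took 0.853 of the group's range, and the other 3 CR livers lay from 41.4 to 41.8 FPKM. For Eci2 the gap of CR replicate 4 (48.8 FPKM) took 0.936 of the range, and the others lay from 34.6 to 35.5 FPKM. Chance flags about 1 in 20 groups, and 34 genes were checked.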

How the results depend on the processing

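Of the 12 calls, those of Cd36, Acad10, Echs1 and Fabp1 (3 that rose, 1 that fell) held in all 19 alternatives, and 8 were lost in at least 1: Rxra in 12, Cpt2 in 11, Etfa in 10, Acsl1 and Acsm5 in 8 each, Hadh in 4, Acadm in 3 and Acadl in 1. No called gene changed sign. The number of the 34 genes that fell was 1 with no filter on low values and 2 without trend and robust variance, against 4. Over all genes 910 of 25678 and 1168 of 12699 fell in these settings, against 1291 of 12699 in the main fit. The replicate numbers name different mice and did not pair the livers (correlation of deviations 0.03, -0.04 and -0.06 for numbers 1 to 3). With the number as a replicate block, on 2 residual degrees of freedom and with CR replicate 4 fitted by a level of its own, 3 of the 34 genes rose and 1 fell, and 482 of all genes rose and 508 fell, against 1433 and 1291. Leaving out 1 library gave 4 to 8 genes of the list that rose and 1 to 3 that fell, 699 to 1523 of all genes that rose and 629 to 1234 that fell, and 9 to 11 other pathway genes that rose and 5 to 12 that fell (main 12 and 11). The all-gene counts dropped most without AL replicate 2 (699 and 629), AL replicate 1 (799 and 686) and CR replicate 2 (911 and 841). Without CR replicates 1 and 2 together, 4 genes of the list rose and 2 fell, 687 of all genes rose and 642 fell, and 7 other pathway genes fell. Without CR replicates 3 and 4 together, 864 of all genes rose. The cause was not tested.

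Signs reversed only for 5 genes that were not called. Without CR replicates 1 and 2 the log2 fold change was 0.022 for Cpt1a, 0.068 for Slc25a20, 0.0017 for Acaa2 and 0.14 for Etfb, and without CR replicates 3 and 4 it was 0.087 for Oxct1. Centred on the median of tested genes it was 0.0014 for Slc25a20 and 0.0042 for Acaa2. Leaving out 1 library gave -0.13 to 0.052 for Slc25a20 and -0.081 to 0.030 for Acaa2. Etfb had a log2 fold change of -1.09 without CR replicates 3 and 4, a fit chosen after seeing the data. Crat passed without AL replicate 3 (0.91). The lowest gene of the list, Oxct1, stood near 1 FPKM on 56 to 101 reads, and the effect of depth was not tested.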
